A study of Mus musculus with 4 samples.

Results

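The genes described here form a module with a transient peak in pre-osteoclasts: their signal was at least 2 times higher on the pre-osteoclast array than on the array of the stage before it and on both arrays of the stage after it. The study followed mouse osteoclast formation in culture with 4 single-channel expression arrays, 1 for each group, and no replicates. Bone marrow macrophages (BMM) came from marrow of C57BL/6 mice, 8 to 10 weeks of age, after 3 days in M-CSF at 100 ng/ml. With RANKL at 100 ng/ml added to the M-CSF for 2 days, mononuclear cells positive for the osteoclast enzyme TRAP were collected as pre-osteoclasts (pOC). After 2 further days with both cytokines the cells were multinucleated osteoclasts, kept either on plastic (mOCp) or on dentin, which they resorb (mOCd). M-CSF was present in every group, and no array holds cells kept for the same days without RANKL, so an effect of RANKL and one of time cannot be told apart. Whether an RNA came from 1 mouse or a pool is not given in the sources used here.

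Members were chosen on the measured values themselves. Each gene was represented by the probe set that was brightest on average, values below an array's median were set to that median (the floor, at 12.7 in BMM, 14.5 in pOC, then 14.8 in mOCp and 15.8 in mOCd), and a member had to reach the 75th percentile of the pOC array, an intensity of 81.5, and 2 times each of the 3 other values. Of 18193 named genes 58 did so (0.319%), or 0.875% of the 6630 genes that reached the 75th percentile in pOC, called bright genes from here on. The peak in pOC is therefore the criterion and not a result, and with 1 array per group no value below has a test, a standard error or a p-value. Applied to the other arrays, the same rule found 678 genes for BMM, 26 for mOCp and 83 for mOCd, and 74 genes dipped in pOC.

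Osteoclast precursors proliferate before they fuse, and making a large, acid-secreting cell calls for many ribosomes and mitochondria. Ribosome production starts in the nucleolus, where RNA polymerase I transcribes ribosomal RNA and a large set of proteins and small nucleolar RNAs (snoRNAs) trims and modifies it. Mitochondria import nearly all of their proteins through the TOM and TIM complexes, and RANKL, the osteoclast cytokine, signals through its receptor RANK to NF-kB transcription factors. Grouped by known role, 9 members act on ribosomes or on RNA modification, 10 in mitochondria, 9 in small-molecule metabolism, 8 in RNA binding and the nucleus, 5 in interferon or NF-kB responses and 6 in matrix, signalling or the endoplasmic reticulum. The other 11 have another or no well-known role, 3 of them known only by clone names. These role groups were drawn up with the members known and carry no weight as evidence.

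Promoter windows of 5 members are shown here because they carry the motifs of pathways named in the results: 2 interferon-linked genes that lie next to each other, 2 genes of the NF-kB pathway and 1 mitochondrial import gene with a pair of E-boxes of the kind MYC binds. The sequences are RefSeq's for GRCm38.p6, run 5′ to 3′ along the gene's strand from 250 bases before the annotated start to 50 after it, and capitals mark the motif match. The window of Gbp3, with an interferon-stimulated response element at −45 and an overlapping one at −39 from the start, covers chr3:142559794-142560093 on the plus strand, that of Gbp7, with 1 such element at −53, chr3:142530086-142530385 on the plus strand, and that of Rel, with overlapping NF-kB sites at −92 and −91, chr11:23770920-23771219 on the minus strand. That of Bcl3, with an NF-kB site at 3, covers chr7:19822706-19823005 on the minus strand, and that of Timm8a1, with E-boxes at −236 and 25, chrX:134541621-134541920 on the minus strand.
Gbp3: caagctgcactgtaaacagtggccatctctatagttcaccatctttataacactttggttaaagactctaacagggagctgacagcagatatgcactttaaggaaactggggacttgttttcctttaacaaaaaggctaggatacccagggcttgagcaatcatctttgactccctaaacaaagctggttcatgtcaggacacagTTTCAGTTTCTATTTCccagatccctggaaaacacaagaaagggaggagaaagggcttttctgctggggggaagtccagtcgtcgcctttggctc
Gbp7: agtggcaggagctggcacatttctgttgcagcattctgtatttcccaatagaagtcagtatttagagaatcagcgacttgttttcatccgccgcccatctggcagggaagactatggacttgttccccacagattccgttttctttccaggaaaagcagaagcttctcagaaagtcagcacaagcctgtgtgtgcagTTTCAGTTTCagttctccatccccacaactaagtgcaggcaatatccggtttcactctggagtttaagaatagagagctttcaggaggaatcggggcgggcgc
Rel: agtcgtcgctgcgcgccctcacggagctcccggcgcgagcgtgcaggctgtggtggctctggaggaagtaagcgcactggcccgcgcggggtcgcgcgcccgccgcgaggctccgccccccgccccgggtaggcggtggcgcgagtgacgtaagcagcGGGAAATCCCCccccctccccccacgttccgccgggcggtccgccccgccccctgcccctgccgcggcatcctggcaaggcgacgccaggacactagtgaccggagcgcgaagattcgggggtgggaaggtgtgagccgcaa
Bcl3: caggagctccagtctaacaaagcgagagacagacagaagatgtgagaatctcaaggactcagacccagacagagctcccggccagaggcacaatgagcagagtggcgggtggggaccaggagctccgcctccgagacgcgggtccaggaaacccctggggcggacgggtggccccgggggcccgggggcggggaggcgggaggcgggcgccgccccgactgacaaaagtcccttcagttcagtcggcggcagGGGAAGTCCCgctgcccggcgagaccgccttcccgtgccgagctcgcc
Timm8a1: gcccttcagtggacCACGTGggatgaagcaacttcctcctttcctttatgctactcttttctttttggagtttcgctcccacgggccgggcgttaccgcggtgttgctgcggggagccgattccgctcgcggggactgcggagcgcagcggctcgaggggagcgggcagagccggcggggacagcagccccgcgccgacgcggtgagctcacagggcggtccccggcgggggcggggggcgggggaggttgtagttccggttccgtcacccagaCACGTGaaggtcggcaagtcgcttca

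The labels of the arrays were checked on marker genes. Summed over 10 osteoclast markers, among them Ctsk and Acp5, the intensity was 130.1 in BMM, 30604.2 in pOC, then 49361.7 in mOCp and 48301.8 in mOCd. Macrophage markers (12 genes) summed to 34941.7 in BMM, 17095.3 in pOC, then 27045.7 in mOCp and 21947.8 in mOCd, so the pOC array had the lowest macrophage sum and an osteoclast sum far above that of BMM. No member belongs to any of the 11 marker lists. Among markers of other cells, 3 of 16 dendritic cell genes (H2-Eb1, Cd74 and H2-Aa) were bright in pOC and highest there, and so was 1 of 10 stromal genes, Dcn, at 8.8 in BMM, 196.1 in pOC, then 55.0 in mOCp and 127.3 in mOCd. The stromal list summed to 81.6 in BMM, 321.8 in pOC, then 125.1 in mOCp and 246.0 in mOCd and the dendritic list to 494.3 in BMM, 609.7 in pOC, then 701.7 in mOCp and 668.7 in mOCd, and their part in the members' peak was not tested. At or under the floor in pOC were 6 of the 10 stromal and 7 of the 16 dendritic genes. Neutrophil markers summed to 497.4 in BMM, 995.0 in pOC, then 2091.9 in mOCp and 1142.8 in mOCd, with none highest in pOC among the bright ones. Mast cell, erythroid, B cell, T and NK cell and endothelial lists had no bright gene in pOC. In bulk RNA a lower signal from fewer cells of a type and from less RNA per cell cannot be told apart.

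Most members peaked by a modest margin. Their pOC intensity ran between 81.5 and 1918.2 with a median of 325.55. The ratio of pOC over the highest other array had a median of 2.21 and a maximum of 4.82, with 41 of 58 under 2.5-fold, 8 at 3-fold or more and 1 at 4-fold or more. The highest other array was BMM for 34 members, mOCp for 16 and mOCd for 8. Relative to BMM the median ratio was 2.41 (range 2.01 to 22.3), relative to mOCp 2.88 (2.02 to 9.80) and relative to mOCd 3.07 (2.06 to 12.7). All 58 are by construction among the 806 of 7254 genes (11.1%) that were at least 2-fold higher in pOC than in BMM, of which they make up 7.20%. They are likewise among the 820 of 7191 (11.4%) lower in mOCp than in pOC and the 885 of 7230 (12.2%) lower in mOCd than in pOC.

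**Figure D1:**
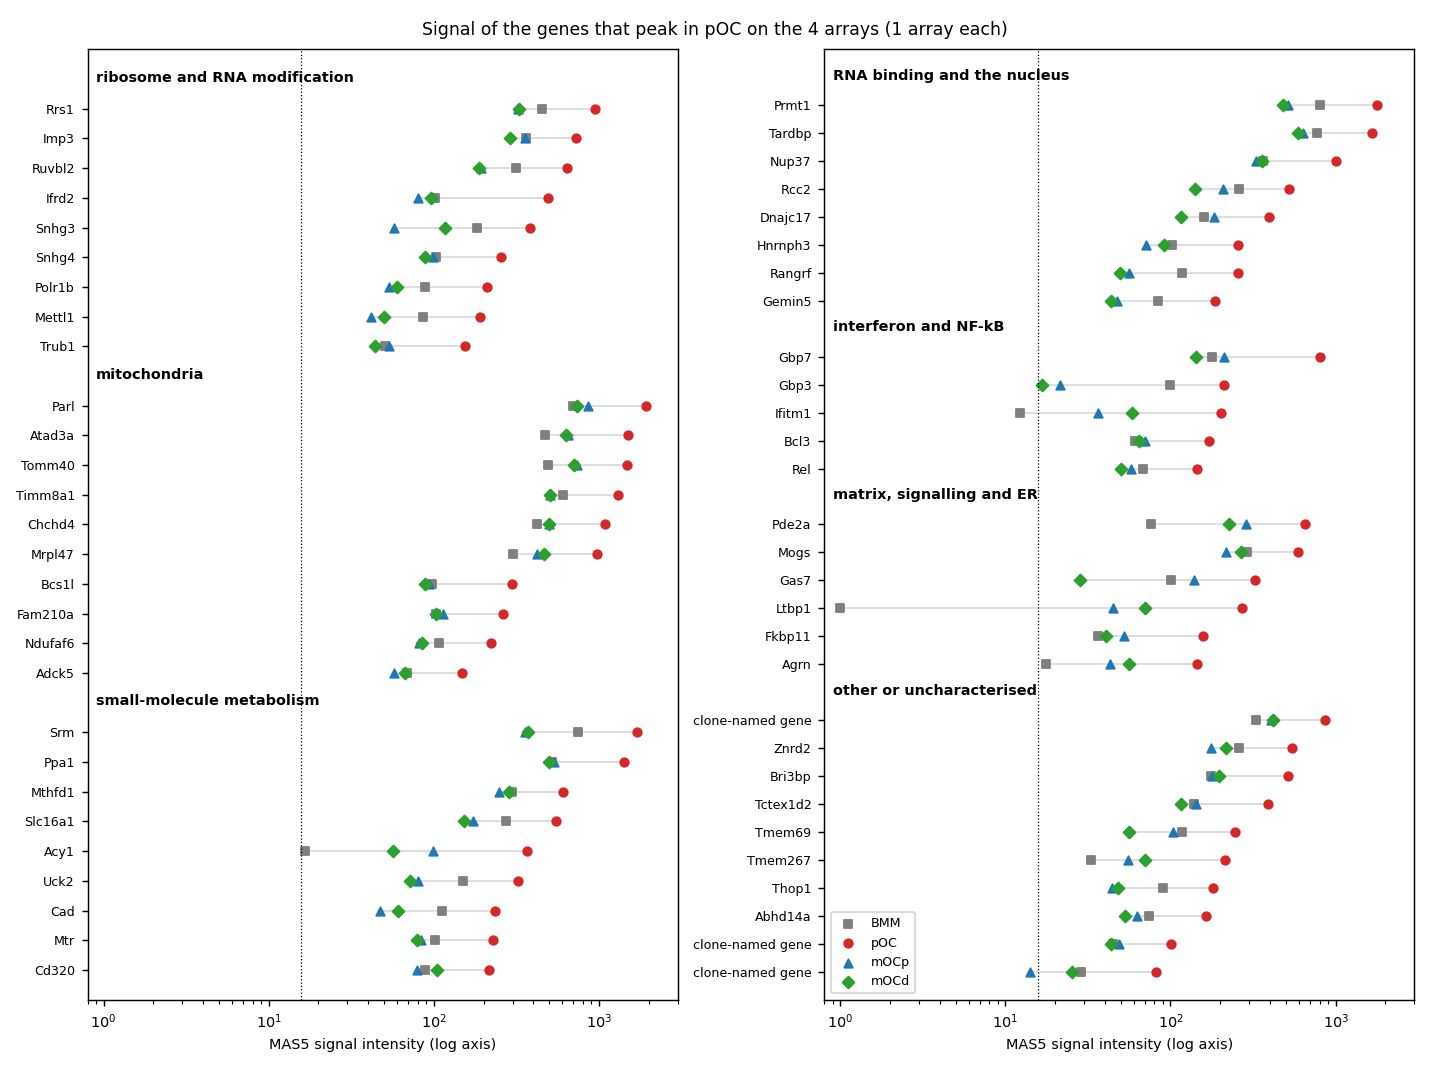
MAS5 signal intensity (log axis) of 57 members on the 4 arrays, 1 point per array, grouped by role and ordered by pOC intensity. The dotted line is the mOCd floor of 15.8, the highest of the 4 floors. The red pOC points lie to the right of the other 3 in each row, as the rule requires, and most BMM, mOCp and mOCd points cluster together, while Acy1, Ltbp1, Ifitm1, Agrn and Pde2a have a BMM point far to the left.

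Ifrd2, an interferon-related developmental regulator that binds ribosomes and represses translation, had the highest ratio. It stood at 101.6 in BMM, 489.8 in pOC, then 80.0 in mOCp and 95.9 in mOCd. The pOC value was 4.82 times that in BMM, 6.12 times that in mOCp and 5.11 times that in mOCd, while the other 3 arrays lay close together.

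Genes of ribosomal RNA synthesis and ribosome assembly shared a pattern in which the mature values lay below BMM. Polr1b encodes the second-largest subunit of RNA polymerase I and stood at 88.2 in BMM, 211.0 in pOC, then 53.6 in mOCp and 59.5 in mOCd. Rrs1, a regulator of ribosome assembly in the nucleolus, stood at 452.6 in BMM, 945.6 in pOC, then 321.6 in mOCp and 326.0 in mOCd. Imp3, a protein of the U3 snoRNA particle that cuts the ribosomal RNA precursor, had 360.1 in BMM, 730.9 in pOC, then 356.6 in mOCp and 287.4 in mOCd. Ruvbl2, an ATPase that helps assemble snoRNA particles and chromatin remodellers, had a pOC value 2.03 times BMM, 3.30 times mOCp and 3.40 times mOCd. Of the 9 members in this role group 8 had both mature values below BMM, the exception being Trub1. Over all members 58.6% did, and over bright genes 45.3%. The rule itself limits how far above BMM a mature value can lie. In mOCp the 8 ranged from 0.32 times BMM (Snhg3) to 0.99 times BMM (Imp3), so not all lay clearly below it.

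Trub1 and Mettl1, also in this group, are enzymes that modify transfer RNA. Trub1, a tRNA pseudouridine synthase, stood at 50.6 in BMM, 154.6 in pOC, then 53.8 in mOCp and 44.1 in mOCd. Mettl1, which methylates guanosine in tRNA, stood at 85.7 in BMM, 189.4 in pOC, then 41.5 in mOCp and 50 in mOCd, so mOCp lay more than 2-fold below BMM.

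A pair of members are host genes, transcripts whose introns release snoRNAs. Snhg3 stood at 181.4 in BMM, 380.4 in pOC, then 57.2 in mOCp and 116.2 in mOCd, and it was the one member at least 2-fold higher in mOCd than in mOCp (2.03-fold). Snhg4 stood at 102.5 in BMM, 256.5 in pOC, then 99.0 in mOCp and 88.7 in mOCd, with BMM and both mature cultures near each other. The 6 further bright genes with an Snhg symbol were highest in pOC too, also under 4 other scalings of the arrays, although they did not meet the rule. A further member probe set is annotated to the microRNA gene Mir1949, which lies inside the Snhg4 locus in RefSeq. Labelling was primed on poly(A) tails and does not measure a mature microRNA, and signal from the 2 genes cannot be told apart, so no value is given for it.

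Other genes of ribosome production were mostly highest in pOC too, with smaller ratios. Here and in the lists below, members are left out of the counts unless stated, since the rule fixed their direction. Of the other 38 bright genes in the list of ribosome biogenesis and nucleolar genes, which also holds Polr1b and Rrs1, 36 (94.7%) were highest in pOC, against 27.4% of bright genes other than members, and 23 were at least 1.5 times above each other array, against 4.08%. With members included, 28.1% of bright genes were highest in pOC and 4.92% were at 1.5-fold. Under other scalings 24.4% to 47.1% of bright genes other than members were highest in pOC, with 47.1% after scaling to the hybridisation controls. Counts under other scalings below are to be read beside those shares. Only Pwp2 and Wdr75 were higher in BMM. Their median log2 ratio was 0.64 for pOC over BMM, −1.41 for mOCp over pOC and −1.49 for mOCd over pOC, beside 0.11, −0.092 and −0.087 for bright genes other than members. At 2-fold, 0 of 38 were higher in pOC than in BMM, 35 were lower in mOCp than in pOC and 34 were lower in mOCd than in pOC, where 10.4%, 10.7% and 11.5% of all eligible genes other than members were. The 0 is largely fixed by leaving members out, since a bright gene 2-fold over BMM and 2-fold lower in both mature cultures would be a member. With members included, 2 of 40 were 2-fold higher in pOC than in BMM, beside 11.1% of all eligible genes. Lower than in pOC were then 37 in mOCp and 36 in mOCd, beside 11.4% and 12.2%. Most genes of the list thus fell 2-fold after pOC, and few rose 2-fold before it.

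Examples show how close other genes of the list came to the rule. Nolc1, a nucleolar phosphoprotein, stood at 320.8 in BMM, 637.9 in pOC, then 146.9 in mOCp and 140.7 in mOCd, a ratio of 1.99. Nop2, a ribosomal RNA methyltransferase, stood at 198.4 in BMM, 392.1 in pOC, then 161.7 in mOCp and 165.1 in mOCd (1.98). Fbl encodes fibrillarin, the methyltransferase of box C/D snoRNA particles, and stood at 990.4 in BMM, 1685.3 in pOC, then 545.4 in mOCp and 599.2 in mOCd. Dkc1, the pseudouridine synthase of box H/ACA particles, had 419.7 in BMM, 649.1 in pOC, then 84.3 in mOCp and 113.1 in mOCd, with the mature cultures far under BMM. The 4 bright RNA polymerase I subunit genes other than Polr1b were highest in pOC as well (3 or 4 of them under other scalings), Polr1d by 1.01 times. Structural proteins of the cytosolic ribosome behaved less uniformly, with 22 of 41 bright genes highest in pOC (16 to 38 under other scalings) and 1 at 1.5-fold.

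**Figure D2:**
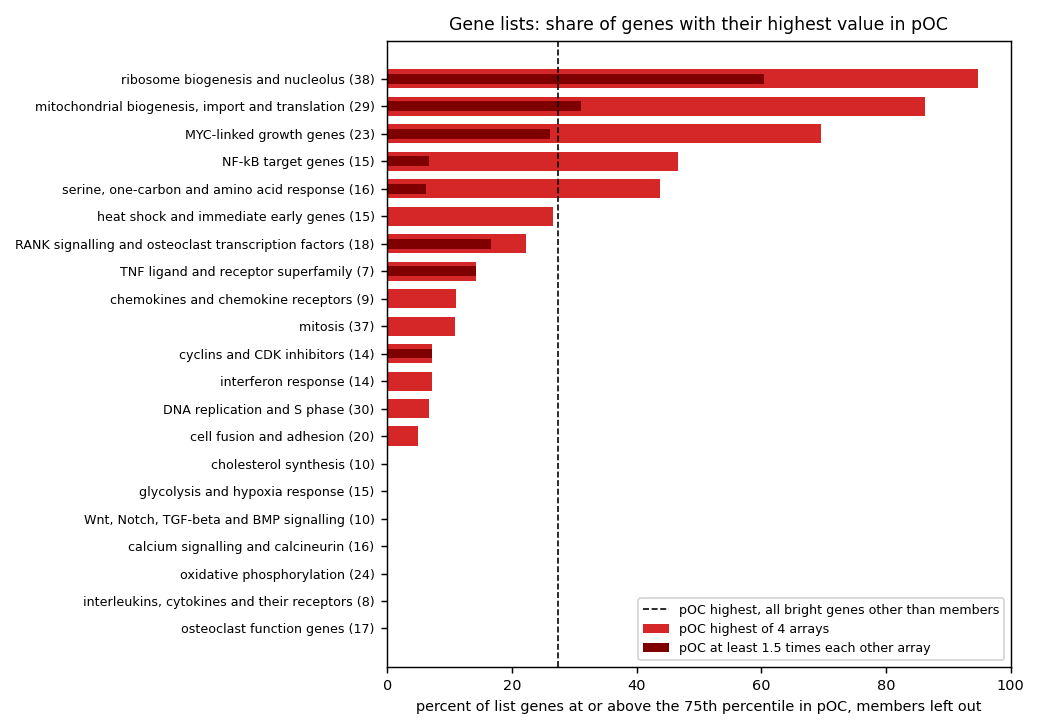
Percent of the bright genes of each pathway list, members left out, whose highest value was in pOC (red) or whose pOC value was at least 1.5 times each other array (dark red), with the number of bright genes in brackets. The dashed line marks the 27.4% of bright genes other than members highest in pOC. Ribosome biogenesis (94.7%) and mitochondrial biogenesis (86.2%) reach furthest to the right, while oxidative phosphorylation and osteoclast function genes are at 0 (9 of 24 and 1 of 17 genes after scaling to the hybridisation controls). Under that scaling 47.1% of bright genes other than members were highest in pOC. Before it, other pathway lists also had 0 bright genes highest in pOC. They were interleukins and cytokines (0 of 8), calcium signalling (0 of 16) and Wnt, Notch, TGF-beta and BMP signalling (0 of 10). Glycolysis and hypoxia response (0 of 15) and cholesterol synthesis (0 of 10) did too.

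The mitochondrial members act in protein import, in respiratory chain assembly and in upkeep of the organelle. Parl, a rhomboid protease of the inner membrane, stood at 699.1 in BMM, 1918.2 in pOC, then 858.9 in mOCp and 733.4 in mOCd. Tomm40, the channel of the TOM complex through which proteins cross the outer membrane, stood at 491.4 in BMM, 1484.0 in pOC, then 734.3 in mOCp and 711.0 in mOCd. Its ratio of 2.02 over mOCp is one of the lowest in the module.

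Import through the space between the membranes had 2 members. Timm8a1, a small TIM chaperone, stood at 606.0 in BMM, 1311.6 in pOC, then 508.8 in mOCp and 508.7 in mOCd. Chchd4, which imports and oxidises proteins there, stood at 419.4 in BMM, 1087.8 in pOC, then 501.9 in mOCp and 500.9 in mOCd. Both had nearly the same value on the 2 mature arrays.

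Assembly and upkeep of the respiratory chain and of mitochondrial DNA and ribosomes supplied others. Bcs1l, an ATPase that inserts the Rieske protein into complex III, had the highest ratio of the mitochondrial members (3.07), with 97.4 in BMM, 298.9 in pOC, then 93.7 in mOCp and 88.4 in mOCd. Ndufaf6, an assembly factor of complex I, stood at 107.4 in BMM, 221.9 in pOC, then 81.7 in mOCp and 84.6 in mOCd. Atad3a, an inner-membrane ATPase linked to nucleoids, the packaged mitochondrial DNA, stood at 470.3 in BMM, 1508.6 in pOC, then 653.8 in mOCp and 629.6 in mOCd. Mrpl47, a protein of the large mitochondrial ribosomal subunit, Fam210a and the kinase-like Adck5 had ratios between 2.09 and 2.29. Of the 10 mitochondrial members 4 had both mature values below BMM, beside 58.6% of all members and 45.3% of bright genes. The median log2 ratio of mitochondrial members over BMM was 0.20 in mOCp and 0.03 in mOCd. It was −0.49 and −0.47 for the ribosome and RNA modification members.

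Other genes of mitochondrial growth were also mostly highest in pOC. The list for mitochondrial biogenesis, import and translation holds Tomm40 and Timm8a1, and of its other 29 bright genes 25 (86.2%) were highest in pOC and 9 were at least 1.5 times above each other array. Their median log2 ratio was 1.06 for pOC over BMM, −0.66 for mOCp over pOC and −0.52 for mOCd over pOC. At 2-fold 18 of the 30 genes eligible against BMM were higher in pOC, beside 10.4% of all eligible genes other than members. In mOCp 3 of 29 were lower than in pOC and in mOCd 3 of 29, beside 10.7% and 11.5% of all eligible genes other than members. Leaving members out limits these counts, since a bright gene 2-fold over BMM and 2-fold lower in both mature cultures would be a member. With members included, 20 of 32 were higher in pOC than in BMM, beside 11.1% of all eligible genes. Lower than in pOC were then 5 of 31 in mOCp and 5 of 31 in mOCd, beside 11.4% and 12.2%. Hspd1, the mitochondrial chaperonin, stood at 1971.2 in BMM, 4666.4 in pOC, then 2655.7 in mOCp and 2412.6 in mOCd, and Tfam, which packages and transcribes mitochondrial DNA, at 192.8 in BMM, 282.0 in pOC, then 186.0 in mOCp and 176.4 in mOCd.

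The 4 list genes with another pattern were Gabpa and Tfb1m, highest in BMM, and Lonp1 and Ppargc1b, highest in a mature culture. Ppargc1b, the coactivator that drives mitochondrial biogenesis in osteoclasts, stood at 27.8 in BMM, 550.6 in pOC, then 593.1 in mOCp and 1156.5 in mOCd. Among families defined by symbol after the members were known, 15 of 19 further bright TOM and TIM genes, 55 of 75 mitochondrial ribosomal proteins and 4 of 6 complex I assembly factors were highest in pOC (14 to 18, 48 to 66 and 2 to 6 under other scalings). In the same order 2, 18 and 1 of these further genes were at least 1.5 times above each other array. Their median log2 ratios of mOCp over pOC were −0.41, −0.30 and −0.18. Probe sets of a gene differed by an SD of 0.40 there, so these falls were about that size or smaller. For mOCd over pOC the medians were −0.38, −0.44 and −0.17, below the SD of 0.50. The respiratory chain itself was mostly highest elsewhere. Highest in pOC were 1 of 34 bright complex I subunits and 0 of 24 genes of the oxidative phosphorylation list. After scaling to the hybridisation controls 13 (38.2%) and 9 (37.5%) were, beside 47.1% of bright genes other than members. The oxidative phosphorylation list had a median log2 ratio of 0.96 for pOC over BMM, 0.49 for mOCp over pOC and 0.40 for mOCd over pOC.

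Several metabolic members make building blocks for growth. Srm, spermidine synthase, stood at 751.1 in BMM, 1695.3 in pOC, then 356.1 in mOCp and 373.2 in mOCd. Cad, which catalyses the opening steps of pyrimidine synthesis, stood at 112.0 in BMM, 236.4 in pOC, then 47.4 in mOCp and 60.6 in mOCd. Uck2, a uridine and cytidine kinase of the pyrimidine salvage route, had a pOC value 2.17 times BMM, 4.02 times mOCp and 4.54 times mOCd. In all 3 genes both mature values were below BMM.

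One-carbon metabolism, which moves methyl groups between folate and methionine, supplied another 3. Mthfd1, a folate enzyme with several activities, stood at 295.6 in BMM, 606.3 in pOC, then 249.1 in mOCp and 283.8 in mOCd. Mtr, the vitamin B12-dependent methionine synthase, stood at 101.9 in BMM, 228.6 in pOC, then 83.1 in mOCp and 79.4 in mOCd. Cd320, the receptor that brings B12 into cells, stood at 89.0 in BMM, 216.3 in pOC, then 79.5 in mOCp and 103.9 in mOCd. For these genes the BMM and mature values lay within 1.5-fold of one another. In the wider list of serine, one-carbon and amino acid response genes 7 of 16 bright genes other than Mthfd1 (43.8%) were highest in pOC and 1 was at 1.5-fold, the mitochondrial serine enzyme Shmt2.

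Acy1, an aminoacylase that frees amino acids from their acetylated forms, had the largest ratio over BMM among members above the floor on all arrays. It stood at 16.5 in BMM, 367.4 in pOC, then 99.4 in mOCp and 56.7 in mOCd, 22.3 times higher in pOC than in BMM. The BMM value lies just above the floor. Ppa1, the cytosolic pyrophosphatase, stood at 519.9 in BMM, 1412.4 in pOC, then 535.3 in mOCp and 500.9 in mOCd, and Slc16a1, the lactate and pyruvate carrier MCT1, had a ratio of 2.02 over BMM.

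A list of growth genes linked to the transcription factor MYC holds Srm and Cad, and of its other 23 bright genes 16 (69.6%) were highest in pOC and 6 were at 1.5-fold. The list is mixed, and Tfrc, Ldha and Eif4ebp1 were highest in a mature culture. Myc stood at 465.1 in BMM, 532.0 in pOC, then 303.7 in mOCp and 224.0 in mOCd, so it too was highest in pOC, at 1.14 times BMM, but was no member. Cell division genes did not share the peak, with 4 of 37 bright mitosis genes and 2 of 30 DNA replication genes highest in pOC and 0 at 1.5-fold in either list (up to 9 and 3 highest, and 1 mitosis gene at 1.5-fold, after scaling to the hybridisation controls). Under that scaling 47.1% of bright genes other than members were highest in pOC. The median log2 ratios of the mitosis and DNA replication genes for pOC over BMM were −0.45 and −0.71.

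Members that bind RNA or act in the nucleus were mostly lower in the mature cultures than in BMM. Prmt1, the main arginine methyltransferase, whose substrates include many RNA-binding proteins, stood at 808.7 in BMM, 1790.3 in pOC, then 514.0 in mOCp and 480.9 in mOCd. Nup37, a protein of the outer nuclear pore ring, stood at 361.7 in BMM, 1012.0 in pOC, then 329.2 in mOCp and 356.3 in mOCd. Gemin5, the part of the SMN complex that recognises small nuclear RNA, stood at 83.5 in BMM, 186.1 in pOC, then 47.7 in mOCp and 43.4 in mOCd. Tardbp (TDP-43), Hnrnph3, the Ran cofactor Rangrf, the chromatin-bound Rcc2 and Dnajc17 were the remaining ones, with ratios between 2.02 and 2.52. In 7 of the 8 members of this role group both mature values were below BMM, beside 58.6% of all members and 45.3% of bright genes. The median log2 ratio of the 8 over BMM was −0.42 in mOCp and −0.61 in mOCd. Of the other 16 bright nucleoporins 7 (43.8%) were highest in pOC, against 27.4% of bright genes other than members. Under other scalings 6 to 11 were, where the share over bright genes other than members was 24.4% to 47.1%.

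**Figure D3:**
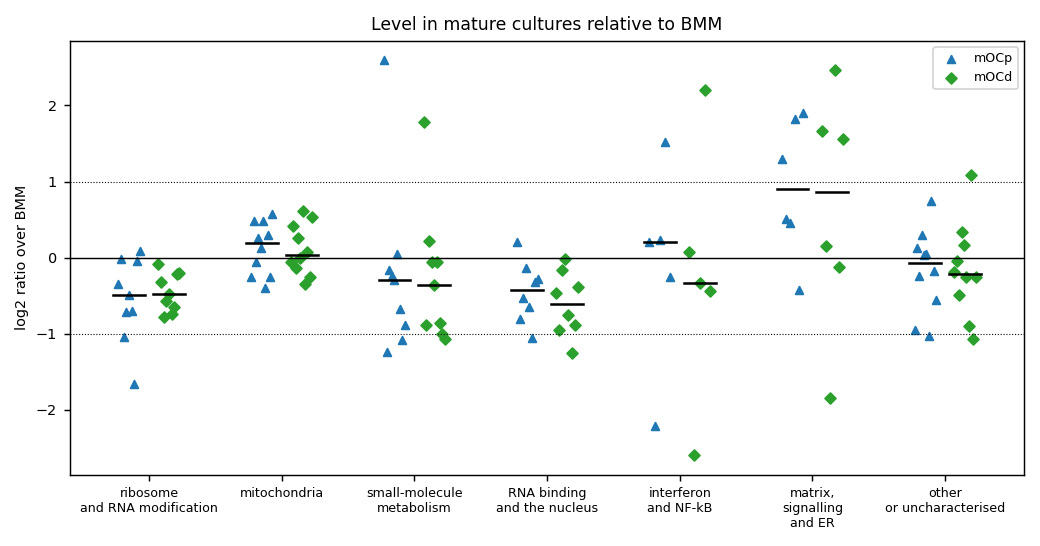
Log2 ratio of mOCp (blue) and mOCd (green) over BMM for 57 members, by role group, 1 point per gene, with the median as a black bar. Dotted lines mark 2-fold. Ribosome, metabolism and RNA-binding medians lie below 0, mitochondrial ones at 0.20 and 0.03, and the matrix and signalling group at 0.90 and 0.86.

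The interferon-linked members are 2 guanylate-binding proteins and an IFITM protein. Gbp7 and Gbp3 encode the guanylate-binding proteins, GTPases induced by interferon that act against intracellular microbes. Gbp7 stood at 179.6 in BMM, 806.5 in pOC, then 211.0 in mOCp and 142.7 in mOCd. Gbp3 stood at 100.0 in BMM, 210.8 in pOC, then 21.5 in mOCp and 16.6 in mOCd, and had the largest ratios of pOC over mOCp (9.80) and over mOCd (12.7) of any member. The 2 genes therefore differed after the peak: Gbp7 was near its BMM level in mature cultures and Gbp3 far below it.

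They lie next to each other on chromosome 3, and guanylate-binding proteins are similar in sequence, so their values are uncertain to the extent that a probe set reads both transcripts, which was not tested. No other gene with a Gbp symbol was bright in pOC, and Gbp2 stood at 99.3 in BMM, 18.5 in pOC, then 13.4 in mOCp and 8.3 in mOCd. Ifitm1, a membrane protein that blocks virus entry, had 12.3 in BMM, which is under the floor, 203.0 in pOC, then 36.4 in mOCp and 58.3 in mOCd. That is at least 15.98-fold higher in pOC than in BMM. Its relative Ifitm3 stood at 4561.7 in BMM, 4820.1 in pOC, then 1104.1 in mOCp and 315.7 in mOCd. Ifitm2, the other bright IFITM gene, was highest in mOCp, at 1308.9 in BMM, 2397.9 in pOC, then 3713.7 in mOCp and 3357.2 in mOCd.

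Of the 14 bright interferon response genes other than Gbp3, 1 was highest in pOC, Ifitm3 (0 after quantile or loess normalization), and the other 13 were highest in BMM. Their median log2 ratio was −1.01 for pOC over BMM, −2.14 for mOCp over pOC and −3.32 for mOCd over pOC. The rule could not have taken in a gene lower in pOC than in BMM, so the difference between Gbp3 and these genes follows from the choice of members.

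Both NF-kB members were dim to moderate. Bcl3, a nuclear partner of the p50 and p52 NF-kB subunits, stood at 61.2 in BMM, 171.6 in pOC, then 70.5 in mOCp and 64.7 in mOCd. Rel, the c-Rel subunit, stood at 68.4 in BMM, 144.0 in pOC, then 57.6 in mOCp and 50.4 in mOCd. Of the 15 bright NF-kB target genes other than Bcl3 and Rel, 7 (46.7%) were highest in pOC and 1 was at 1.5-fold, Nfkb2, the precursor of p52, at 58.2 in BMM, 240.4 in pOC, then 134.7 in mOCp and 139.3 in mOCd. Those counts hold only genes bright in pOC. Of the 21 list genes eligible against BMM, members left out, 7 were at least 2-fold higher in pOC than in BMM and 7 lower. Over all eligible genes 10.4% were higher, members left out, and 13.1% lower, members included. Traf1, an adaptor of TNF receptors, stood at 21.7 in BMM, 336.3 in pOC, then 253.1 in mOCp and 177.6 in mOCd, so its later values stayed far above BMM.

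Nfkbia and Tnfaip3, feedback inhibitors in that list, were highest in mOCd by small margins. Nfkbia, the inhibitor IkB-alpha, stood at 3401.2 in BMM, 5948.4 in pOC, then 6851.8 in mOCp and 6920.7 in mOCd. Tnfaip3, the ubiquitin-editing enzyme A20, stood at 176.5 in BMM, 596.4 in pOC, then 531.3 in mOCp and 707.8 in mOCd. Both were higher in the mature culture on dentin than in pOC, by less than the SD of 0.50 (log2) between probe sets of a gene in that comparison. On plastic Nfkbia was higher than in pOC and Tnfaip3 lower. Nfkbia had nearly the same value on plastic and dentin. No member is in the list of RANK signalling and osteoclast transcription factors, where 4 of 18 bright genes were highest in pOC (4 to 8 under other scalings) and 3 were at 1.5-fold: Nfkb2, Junb and Mitf. Mitf, a factor of osteoclast gene expression, stood at 469.4 in BMM, 1505.5 in pOC, then 524.1 in mOCp and 917.0 in mOCd. None of 17 bright osteoclast function genes was highest in pOC, or 1 after scaling to the hybridisation controls.

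The members of matrix, signalling and the secretory pathway had a median ratio of 6.26 over BMM, the highest of the role groups. Ltbp1, which binds latent TGF-beta and tethers it to matrix, had 1.0 in BMM, under the floor, 270.8 in pOC, then 44.7 in mOCp and 69.9 in mOCd. The pOC value was at least 21.3-fold above BMM. Agrn encodes agrin, a heparan sulphate proteoglycan of basement membranes, and stood at 17.6 in BMM, 144.7 in pOC, then 43.1 in mOCp and 55.9 in mOCd. Pde2a, a phosphodiesterase that cyclic GMP stimulates, stood at 76.1 in BMM, 653.0 in pOC, then 285.3 in mOCp and 225.0 in mOCd.

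Fkbp11, a peptidyl-prolyl isomerase of the secretory pathway, stood at 36.6 in BMM, 157.6 in pOC, then 52.2 in mOCp and 40.6 in mOCd. Mogs, the glucosidase that starts the trimming of N-glycans, had 289.1 in BMM, 591.3 in pOC, then 216.0 in mOCp and 265.7 in mOCd. Gas7, a growth arrest gene that acts on the actin cytoskeleton, stood at 101.1 in BMM, 326.8 in pOC, then 138.6 in mOCp and 28.2 in mOCd. Gas7 was the one member at least 2-fold lower in mOCd than in mOCp, but its further probe sets differed. One of them stood at 22.9 in mOCp and 22.2 in mOCd, and another at 53.7 and 45.9. Another fell from 18.7 to 3.3, which is under the floor, and the last was under the floor on both arrays. Members of the remaining group with a high ratio were Tmem267, a little-known membrane protein, at 32.9 in BMM, 212.8 in pOC, then 55.2 in mOCp and 69.6 in mOCd, Tctex1d2, a dynein light chain, with a ratio of 2.72, and the membrane protein Bri3bp with 2.62. The other named ones, Abhd14a, Znrd2, Tmem69 and the metallopeptidase Thop1, had ratios between 2.01 and 2.19.

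The rule sets no condition on where the mature cultures end relative to BMM or to each other. In 41 of 58 members (70.7%) both mature values lay within 2-fold of BMM, as in 61.5% of all bright genes. In 5 (8.62%, beside 13.9% of bright genes) both were at least 2-fold above it, namely Acy1, Agrn, Ifitm1, Ltbp1 and Pde2a, with BMM values between 1.0 and 76.1. In 3, Gbp3, Rangrf and Srm (5.17%, beside 12.9%), both were at least 2-fold below it, and in 9 the 2 mature arrays fell in different classes. Both values were below BMM in 34 members (58.6%, beside 45.3% of bright genes) and above it in 15 (25.9%, beside 42.6%). The rule holds every mature value to no more than the pOC value divided by 2, which limits how far above BMM a member can lie. The median log2 ratio over BMM was −0.21 for mOCp and −0.23 for mOCd, beside −0.04 and −0.02 for all bright genes.

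The 2 mature cultures were close to each other for most of these genes. The median log2 ratio of mOCd over mOCp was −0.06, beside 0.01 for the 6913 genes eligible in that comparison. Brighter in mOCd were 24 members and brighter in mOCp 34, and 50 were within 1.5-fold. At 2-fold 1 member was higher in mOCd, Snhg3, and 1 lower, Gas7, whose further probe sets differed as given above. Of all eligible genes 2.2% were higher and 2.55% lower. Probe sets of the same gene disagreed by 0.43 (SD, log2) in this comparison, which is larger than the median. The SD was 0.39 for pOC over BMM, 0.40 for mOCp over pOC and 0.50 for mOCd over pOC. Genes highest in pOC by a small ratio, such as Polr1d and Myc, lie within such disagreement.

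**Figure D4:**
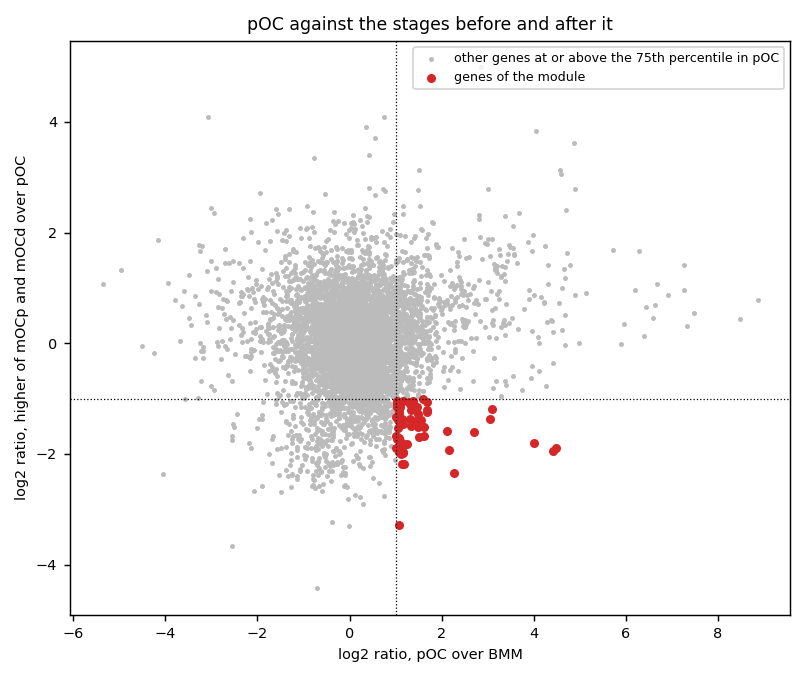
Log2 ratio of pOC over BMM (x axis) against the log2 ratio of the higher mature value over pOC (y axis) for the 6630 bright genes, with members in red and 2-fold marked by dotted lines. Members fill the lower right corner by definition, most of them close to it, and 268 further bright genes had a ratio over the highest other array between 1.5 and 2.

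Values near the limits show how the module shades into its surroundings. Just inside the 2-fold limit were Thop1 (2.01), Slc16a1 and Tomm40 (both 2.02), and just outside it Dnph1 (1.99), Nolc1 (1.99) and Nop2 (1.98). Just outside the brightness limit were Wdr34, Fut4 and Cacnb2, with pOC intensities of 81.1, 77.4 and 70.1. In all, 24 genes met the 2-fold limits but were too dim in pOC.

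A partial check inside the same RNA came from probe sets that the rule had not used. Such probe sets existed for 30 members, 59 in all, and 49 of them for 25 members were above the floor in pOC. Of these 49, 40 were highest in pOC, against 26.4% of such probe sets of all bright genes, 26 were at 1.5-fold and 12 at 2-fold, against 0.761%. They read the same 4 RNA samples, so they bear on the probes and not on the spread between cultures. Atad3a had 3 of them, with ratios of 2.02, 2.29 and 2.74, and the further Gbp7 probe set stood at 32.2 in BMM, 180.2 in pOC, then 63.6 in mOCp and 53.2 in mOCd, a ratio of 2.83.

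Further Timm8a1 and Mtr probe sets had ratios of 2.47 and 2.10. For 6 members at least 1 probe set above the floor was highest elsewhere: Bri3bp, Dnajc17, Fam210a, Mrpl47, Tardbp and 1 clone-named gene. In Tardbp 2 probe sets were highest in pOC (1403.6 in pOC against 738.6 in BMM, and 553.2 in pOC against 286.8 in BMM), and 2 dimmer ones were not (36.6 in pOC against 80.8 in BMM, and 40.6 in pOC against 71.1 in BMM). The further probe sets of Ltbp1, Agrn, Cd320, Slc16a1 and Thop1 were under the floor in pOC, and 28 members had 1 probe set only.

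**Figure D5:**
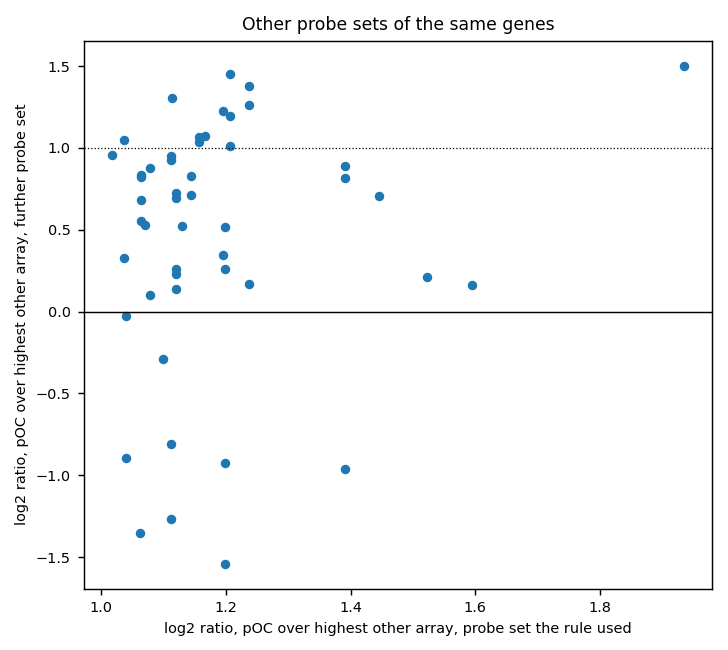
Log2 ratio of pOC over the highest other array for the 49 probe sets above the floor in pOC that the rule did not use (y axis), against the same ratio for the probe set it used (x axis). Points above the solid line at 0 were highest in pOC (40 of 49) and those at or above the dotted line at 1 reached 2-fold (12 of 49).

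Members were also compared by place and promoter sequence. RefSeq held 57 of the 58, 53 of them protein coding, 3 long non-coding and 1 the microRNA gene. Within 200 kb of each other lay the pairs Abhd14a and Acy1, Gbp3 and Gbp7, and Srm and Tardbp, each with no coding gene between them, Bcl3 and Tomm40 with 3 between them, and Mir1949 inside Snhg4. That is 5 of 1596 pairs (0.313%), beside 0.0546% of pairs of bright genes. The count includes Mir1949 and Snhg4, whose signals cannot be told apart, and Gbp3 and Gbp7, for which shared probe signal was not tested. Members spanned a median of 14.1 kb of genome, beside 23.6 kb for bright genes.

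Promoter windows were available for 48 members and searched on both strands for 14 motifs. The E-box CACGTG, which MYC with MAX and related factors bind, occurred in 18.8% of these members (9 genes), 12.9% of 5493 bright genes and 8.09% of all 27025 genes with windows. Its carriers were Acy1, Fkbp11, Mettl1, Ppa1, Prmt1, Slc16a1, Tctex1d2, Timm8a1, whose 2 copies are printed above, and 1 clone-named gene. The GC box GGGGCGGGG was in 31.2% of members, 26.1% of bright genes and 12.9% of all. The NRF1 site (GCGCA, any base, GCGC), of a factor that controls mitochondrial genes, was in 14.6%, 14.2% and 5.19%, so members and bright genes had nearly the same share.

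The interferon-stimulated response element (GAAA, any 2 bases, GAAA), which reads on the opposite strand in the Gbp windows, was in 4.17% of members, 3.62% of bright genes and 3.99% of all. In members it was in Gbp3 and Gbp7 only, the 2 guanylate-binding proteins. The 10-letter NF-kB site was in 6.25% (Bcl3, Rel and Tardbp), 5.9% and 5.14%. The CCAAT box was in 43.8%, 43.0% and 41.1%, the NFAT core GGAAAA in 27.1%, 23.9% and 26.1%, and TTTGAA of the cell cycle homology region in 16.7%, 14.1% and 20.2%.

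Among the rest, CATGTG, an E-box of MITF, was in 12.5% of members, 9.43% of bright genes and 15.9% of all. The E2F site GGCGGGAA was in 8.33%, 5.01% and 2.52%, the PU.1 site GAGGAAGT in 4.17%, 3.97% and 3.69%, the TATA box TATAAA in 4.17%, 8.39% and 15.7%. The cAMP response element TGACGTCA was in 2.08%, 4.08% and 2.03% and the AP-1 site TGANTCA in 2.08%, 5.86% and 8.97%. Each motif was counted on its own, whether or not a match overlapped another motif. Members' windows held a median of 18 CpG and 58.7% GC, against 22 and 61.3% in bright genes and 7 and 52.7% in all. A match is a string of letters and not a bound site, and none of these shares has a test.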

How the data were processed

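RNA from 4 stages was labelled and hybridised to Affymetrix expression arrays, 1 per stage, per the labels' protocols. The authors deposited 1 linear signal intensity per probe set and array. MAS5 is the tool in the submitters' processing notes, and its version is not given in the sources used here. Each deposited array had a 2% trimmed mean intensity of 100.0, so stages cannot be compared for total mRNA. MAS5 leaves dim values imprecise, and precision is limited throughout by having 4 arrays.

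Of 45037 non-control probe sets 34945 had 1 gene symbol in a platform annotation of 2016, 932 several and 9160 none listed. Each gene kept its probe set of highest mean log2 intensity, and values were floored at each array's 50th percentile. Where the dimmer value was at the floor the ratio is written as at least N-fold. Genes eligible in a comparison had their brighter value at or above the 75th percentile. Counts used Python 3.11.15 with pandas 2.3.3 and were tested on simulated data, and alternative normalizations used limma 3.58.1 in R 4.3.3. Promoters came from RefSeq tables of GRCm38.p6.

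The members and the lists were chosen with earlier results of these data known. Values are given for the 12 members with the highest ratio above the floor, those at the floor elsewhere, members of a list, the 3 nearest each limit, and members with a known role. Transcripts with clone names only are counted.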

Additional observations from a re-analysis of the deposited data

How the results depend on the processing

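The rule was run under 16 alternatives. The number of members, 58 as reported, was 37 with an offset of 20 in place of the floor, 326 at 1.5-fold, 8 at 3-fold, 28 with pOC at or above the 90th percentile and 167 after scaling to the 12 hybridisation controls above the floor, and between 47 and 83 under the others. Those controls were dimmer in pOC by 0.16 (log2) than in BMM, and brighter by 0.43 in mOCp and 0.35 in mOCd than in pOC. Scaling to them shifts every gene by that much, puts 47.5% of bright genes highest in pOC and moves the members' median log2 ratio of mOCp over pOC to −1.96, against −1.53 as reported. It also puts 9 of 24 oxidative phosphorylation genes highest in pOC, where the other scalings gave 0. These list checks, and those of gene families given beside their counts, were chosen after seeing the data. Without members, ribosome biogenesis genes highest in pOC numbered 36 to 38 of 38, mitochondrial biogenesis genes 24 or 25 of 29, MYC-linked genes 15 to 18 of 23 and NF-kB targets 6 to 11 of 15.

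Of the members, 17 were kept in the 14 alternatives other than 3-fold and the 90th percentile, and Acy1, Gbp7 and Ifrd2 in all 16. Srm, Prmt1, Gbp3, Tomm40, Abhd14a and a clone-named gene had no probe set left once suffixed ones (_a_at, _s_at or _x_at) were left out. They count as not kept there, although their peak could not be measured. For Srm and Prmt1 that was the only loss among the 14. The log2 ratio of pOC over the highest other array turned below 0 with the mean of all probe sets for Cd320 (−1.01), Dnajc17 (−0.20), Fam210a (−0.065), Fkbp11 (−0.12), Mrpl47 (−0.65) and Thop1 (−0.58), and without suffixed probe sets for Fkbp11 (−0.12) and Tardbp (−1.26). Means over probe sets include dim ones at the floor. No paired analysis was possible because each group has 1 array.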
